A study of Homo sapiens with 6 samples.

Results

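KYSE-30, a human esophageal squamous cell carcinoma (ESCC) line, was compared with HET-1A, a non-cancerous line of human esophageal epithelium, by ATAC-seq, with 2 libraries per line. The libraries carry the numbers 4 and 6 for KYSE-30 and 1 and 2 for HET-1A, as in their labels. HET-1A cells were kept in BEBM medium with its additives, and KYSE-30 cells in RPMI/F12 with 5% FBS, so line and medium cannot be told apart. HET-1A was immortalised with the large T antigen of SV40, and each line stems from a single donor, so the comparison concerns these 2 lines and not tumour against normal tissue. All called peaks of the 4 libraries, 29073 in number, were chosen and merged where they shared at least 1 bp. This gave 23596 regions, against 23972 regions when all 6 libraries of the series, which include another ESCC line, were merged.

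ATAC-seq uses the Tn5 transposase to cut DNA that is not wrapped in nucleosomes, so promoters of active genes and distal enhancers appear as peaks of short fragments. Enhancers differ more between cell types than promoters do, and in epithelial cells many of them hold the motif of AP-1, a dimer of FOS and JUN family factors that acts downstream of EGFR and MAPK signalling. ESCC often carries extra copies of segments with growth genes such as EGFR or CCND1, and extra copies raise the number of fragments over a whole segment.

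The peak lists were called by the authors in each library separately, without pooling and without a control library, and their lengths differed widely. HET-1A library 1 held 168 peaks and library 2 held 15979, while KYSE-30 library 4 held 1255 and library 6 held 11671. The genome background, in tags per 200 bp, was 1.88 in library 1 and 3.34 in library 2 of HET-1A, and 2.36 in library 4 and 1.49 in library 6 of KYSE-30, so the second longest list came from the library with the lowest background. The following measures describe a peak within its own library. The fold enrichment divides the tags at the summit by the local background, with 1 added to each. The relative background is the local background over the genome background of the library, and it is called raised from 4 upward. The rank percentile orders the peaks of a library by p-value, with 100 for the smallest. No label says whether the libraries of a line came from separate cultures. With 2 libraries per line the smallest two-sided p of an exact permutation test is 0.33, so no test between the lines was run, and intervals of shares are Wilson 95% intervals that cover counting error only.

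The following 200-bp windows of the hg19 genome, on the plus strand and centred on the summit of the strongest peak, show regions of each class outside promoters. The AP-1 core TGACTCA, or its reverse complement, is in capitals. The gained pair, with peaks in both KYSE-30 libraries only, is shown because it holds the core. It lies in intergenic sequence near ATP6V1G1 (chr9:117314292-117314491) and in an intron 28663 bp from the nearest start site of SEC61G (chr7:54856418-54856617). The lost pair, with peaks in both HET-1A libraries only, has the highest mean rank percentiles of the lost regions outside promoters, and it lacks the core. It lies in an intron near ZNF536 (chr19:30824136-30824335) and in intergenic sequence near SULF2 (chr20:46524499-46524698). A shared region near FADD (chr11:70079617-70079816), with peaks in both lines, is likewise shown because it holds the core. Shared regions of higher rank outside promoters lacked it.
gained near ATP6V1G1: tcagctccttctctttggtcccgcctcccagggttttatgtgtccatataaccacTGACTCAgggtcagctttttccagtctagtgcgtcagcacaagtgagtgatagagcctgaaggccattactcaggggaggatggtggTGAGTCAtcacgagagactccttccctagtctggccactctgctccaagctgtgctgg
gained near SEC61G: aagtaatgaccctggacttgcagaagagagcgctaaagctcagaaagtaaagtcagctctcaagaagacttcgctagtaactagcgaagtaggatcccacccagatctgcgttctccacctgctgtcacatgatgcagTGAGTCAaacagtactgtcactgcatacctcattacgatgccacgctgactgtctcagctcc
lost near ZNF536: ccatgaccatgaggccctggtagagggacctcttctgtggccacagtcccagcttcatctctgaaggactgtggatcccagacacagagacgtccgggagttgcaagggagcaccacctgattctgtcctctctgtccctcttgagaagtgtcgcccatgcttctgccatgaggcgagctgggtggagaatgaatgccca
lost near SULF2: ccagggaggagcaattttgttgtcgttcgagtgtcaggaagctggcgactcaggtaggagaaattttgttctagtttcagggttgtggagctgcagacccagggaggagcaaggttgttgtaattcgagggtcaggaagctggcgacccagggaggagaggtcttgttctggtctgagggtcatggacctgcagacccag
shared near FADD: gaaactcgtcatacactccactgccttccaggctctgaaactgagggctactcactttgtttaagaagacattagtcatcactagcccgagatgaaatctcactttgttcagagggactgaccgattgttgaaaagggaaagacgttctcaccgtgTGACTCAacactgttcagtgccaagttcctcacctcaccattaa

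The ATP6V1G1 window holds 2 cores and the SEC61G and FADD windows hold 1 each. The region near ATP6V1G1, which encodes a subunit of the vacuolar proton pump, had fold enrichments of 4.58 and 9.51 in KYSE-30 libraries 4 and 6. The region near SEC61G had 2.56 and 5.23, with 58 and 83 tags at the summit. Its 1-Mb window of chromosome 7, from 54000001 to 55000000, had raised median relative backgrounds of 8.32 and 9.67 in these libraries. The FADD region, 29956 bp from the start site of this adaptor of death receptors, had 5.94 in HET-1A library 2 and 3.26 and 7.78 in the KYSE-30 libraries, and its relative background was raised in all 3 (8.26, 8.53 and 10.5). Only 4.20% of the shared regions outside promoters had a raised background in any library, so this region is not typical of its class.

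Regions were sorted into classes by the presence of called peaks. A region was gained when both KYSE-30 libraries and no HET-1A library had a peak there, lost in the opposite case, and shared when at least 1 library of each line had a peak. These words name patterns of called peaks and not tested changes in accessibility. There were 186 gained regions (0.788% of the merged regions), 23 lost regions (0.0975%) and 4662 shared regions (19.8%). The remaining 18725 regions had a peak in 1 library only, mostly HET-1A library 2 (11265 regions) or KYSE-30 library 6 (6912 regions). HET-1A library 2 and KYSE-30 library 6 together, with no other library, accounted for 4031 shared regions, and 17 regions had a peak in all 4 libraries. With only 168 peaks in HET-1A library 1, no more than 168 regions could have been lost, and the number of gained regions was bounded by the 1255 peaks of KYSE-30 library 4. Under a looser rule that asks for 1 of the 2 libraries of each line, 7530 regions were found in KYSE-30 only and 11404 in HET-1A only.

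**Figure D1:**
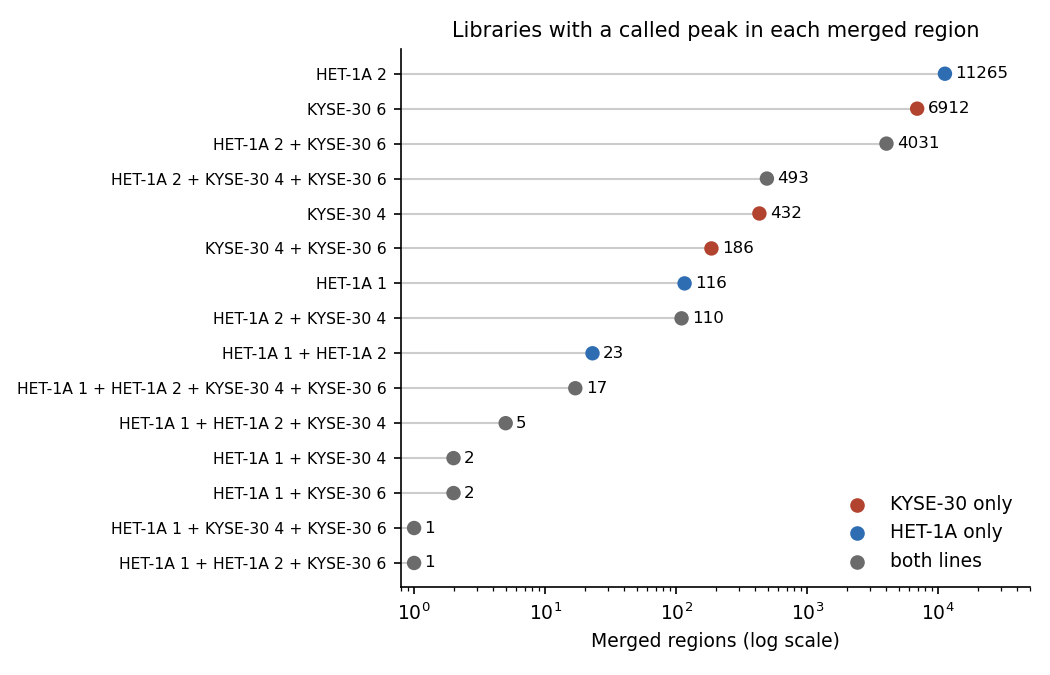
Number of merged regions (log scale) for each combination of libraries with a called peak; red points have peaks in KYSE-30 only, blue in HET-1A only and grey in both lines. HET-1A library 2 alone (11265) and KYSE-30 library 6 alone (6912) hold most regions, against 186 regions for both KYSE-30 libraries and 23 for both HET-1A libraries.

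Promoters were taken as 3 kb to each side of any annotated transcription start site, which is 17.0% of the genome, and held 11914 of the 23596 merged regions (50.5%). Of the 186 gained regions, 118 were at promoters (63.4%, interval 56.3 to 70.0%, and 46.8% with start sites of protein-coding genes alone), 31 in introns, 3 in exons and 34 between genes. Of the 4662 shared regions, 3257 were at promoters (69.9%, 68.5 to 71.2%). Of the 23 lost regions, 6 were at promoters (26.1%, 12.5 to 46.5%), 8 in introns and 9 between genes. The gained and lost shares were close to those of the shorter list of each line. Promoters held 26.8% of all peaks of HET-1A library 1, which limits the lost class, and 63.7% of those of KYSE-30 library 4, which limits the gained class, against 53.1% in HET-1A library 2 and 55.1% in KYSE-30 library 6. Regions found in either library of 1 line were at promoters less often than shared regions, with 45.3% (44.2 to 46.5%) in KYSE-30 and 46.0% (45.1 to 46.9%) in HET-1A. The median width was 446 bp in gained, 629 bp in lost and 406 bp in shared regions, against 260 bp in regions of a single library. A merged region spans all its peaks, and gained, lost and shared regions join peaks of more than 1 library, so these are not widths of single peaks. The part of merging in them was not tested.

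**Figure D2:**
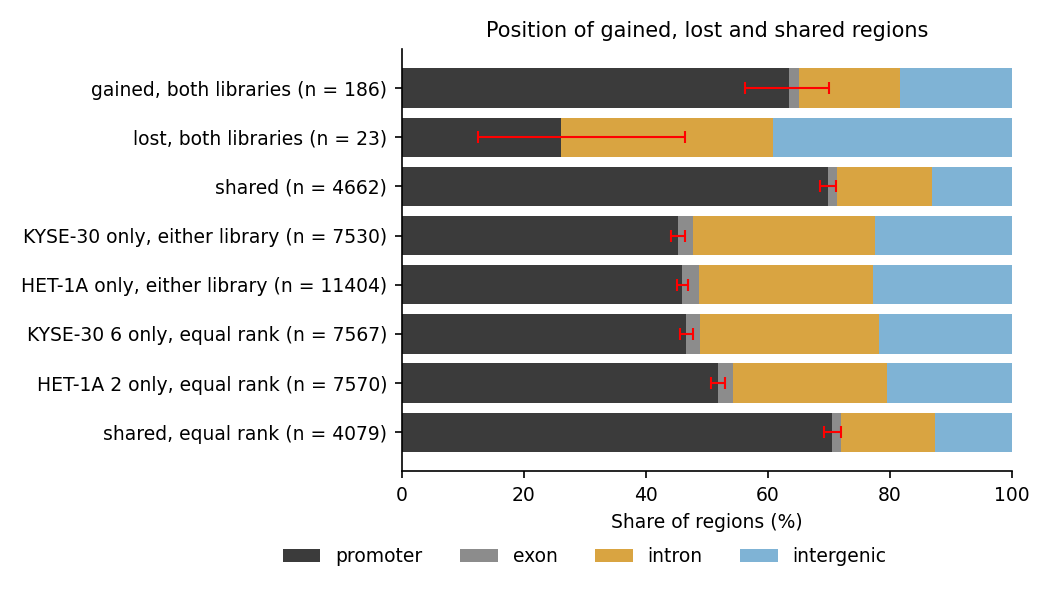
Share of regions (%) at promoters, in exons, in introns and between genes for each class, with n regions beside each name; red bars are Wilson 95% intervals of the promoter share. Shared regions have the promoter share of 69.9%, gained regions 63.4% and lost regions 26.1%, and regions of 1 line only lie between 45.3% and 51.9%.

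The count of genes takes all start sites of a gene together. Among 20162 protein-coding genes, 114 had a gained promoter, with a peak within 3 kb of a start site in each KYSE-30 library and none in HET-1A (0.565% of all genes). The 118 gained promoter regions held protein-coding start sites in 87 cases, and 24 of them held start sites of 2 or more genes. The other 31 held only start sites of non-coding genes. For 22 of the 114 genes the strongest peaks of the 2 libraries did not overlap. The highest mean rank belonged to a region on chromosome 7 that MRPS17 and NIPSNAP2 share. MRPS17 (chr7:56019570-56024193) encodes a protein of the small mitochondrial ribosomal subunit and NIPSNAP2 (chr7:56019486-56067874) a mitochondrial protein. Their fold enrichment was 3.84 in KYSE-30 library 4 and 7.67 in library 6, with 92 and 131 tags at the summit and relative backgrounds of 9.82 and 10.9. LANCL2 (chr7:55433030-55501430), a member of the lanthionine synthetase-like family, had fold enrichments of 2.71 and 6.60 over relative backgrounds of 12.6 and 15.1. SEC61G (chr7:54819943-54827667), the gamma subunit of the translocon of the endoplasmic reticulum, had 2.88 and 7.15 over 7.95 and 9.67. These 4 genes lie close to EGFR, and their peaks had raised backgrounds in both libraries.

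The other 6 of the 10 highest gained promoters had backgrounds under 4 in both KYSE-30 libraries. ZNF519 (chr18:14057456-14132489), which encodes a zinc finger protein, had fold enrichments of 6.57 and 12.4 in libraries 4 and 6. MLF1 (chr3:158288952-158325041), named for its part in a leukaemia fusion, had 6.35 and 11.7. KIFAP3, which links kinesin-2 to its cargo, had 5.45 and 10.8. SLC19A2, a thiamine transporter on the same chromosome 1, had 4.86 and 11. VRK2, a serine/threonine kinase, had 5.50 and 8.57, and IMPA2, an inositol monophosphatase, had 4.33 and 9.83. Each of the 10 had the higher fold enrichment in library 6, the library of lower genome background.

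Further down the list, genes were picked by name after their values were seen. ASPM, a protein of the mitotic spindle poles, had 4.75 and 8.79 in libraries 4 and 6. NCAPG, a condensin subunit that shares its region with DCAF16, had 5.05 and 9.12. CENPO, a centromere protein, had 4.82 and 7.43, and the phosphatase gene CDC25B had 3.41 and 4.90. The pair PEG10 and SGCE, 2 imprinted genes that face each other on chromosome 7, had 4.44 and 10.8. REXO1L1, one of a family of near-identical copies on chromosome 8, was counted as gained with 11 and 7.09, but its region also held HET-1A peaks, with 6.59 in library 1 and 8.98 in library 2, that ended short of the 3-kb limit, so it was not free of HET-1A signal. No other gained gene had a HET-1A peak in the region of its strongest KYSE-30 peaks. The lowest peaks that still made a gained promoter region stood at rank percentiles of 0.637 in library 4 and 2.81 in library 6, so some gained promoters rest on peaks near the end of a list.

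Outside promoters, 68 gained regions were found, with a median distance of 33193 bp to the nearest protein-coding start site. The highest was an intronic region of EGFR, the receptor of epidermal growth factor, at chr7:55141604-55142236. It had fold enrichments of 3.78 and 8.28 and 92 and 181 tags in KYSE-30 libraries 4 and 6, over relative backgrounds of 9.97 and 14.1. An intergenic region near P3H2 (chr3:189655303-189655905), a collagen prolyl hydroxylase gene, had 5.45 and 12.0, with 33 and 77 tags and relative backgrounds of 2.22 and 3.71. All 11 merged regions nearest to P3H2 had a peak in KYSE-30 only, 2 of them in both libraries. An intronic region near ETV1 (chr7:13959664-13960280), an ETS family factor, had 5.21 and 12.8 over backgrounds of 1.36 and 2.37. The region whose nearest gene was LCORL, 1056870 bp away, had 14.1 and 7.75 and the one near KIF13A, a kinesin gene, 6.32 and 6.51. Regions nearest to ELL2, CDH9 and STARD13 completed the 10 highest, with fold enrichments of 4.75 to 5.18 and of 8.38 to 9.28.

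EGFR and SEC61G were the genes nearest to 3 gained regions each, the most of any gene. Besides the intronic region above, the EGFR regions were another intronic one at chr7:55133275-55133901, with 2.49 and 5.28, and one at the start site of a non-coding gene within EGFR at chr7:55253662-55254280, with 2.82 and 7.27. Of the 22 merged regions nearest to EGFR, 18 had peaks in KYSE-30 only, 4 were shared and 0 were in HET-1A only. The EGFR promoter itself was shared. It had 21 tags and a fold enrichment of 5.06 in HET-1A library 2, at a relative background of 1.00, and 106 tags and 5.96 in KYSE-30 library 6, at 11.4, while KYSE-30 library 4 and HET-1A library 1 had no peak there. Tags and local background were thus both higher in KYSE-30 library 6, with the fold enrichments close together. The 1-Mb window from 55000001 to 56000000 of chromosome 7 held 5 gained regions, the most of any window, with median relative backgrounds of 9.97 and 14.0 in the 2 libraries.

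Lost promoters were found for 5 protein-coding genes (0.0248%). TBC1D3 and TBC1D3L, which lie in a cluster of near-identical copies on chromosome 17 (chr17:36337711-36358166 for TBC1D3), share a region with fold enrichments of 5.31 and 5.53 in HET-1A libraries 1 and 2, and reads in such copies are hard to place. KRTAP5-7 (chr11:71238313-71239715), one of a cluster of keratin-associated protein genes, had 2.87 and 2.27 over backgrounds of 11.1 and 13.9. GOSR2, a SNARE protein of the Golgi, had 4.01 and 4.72, but its peaks in libraries 1 and 2 lay at different start sites and formed no common region. DLGAP4, a scaffold protein gene, had 4.41 in library 1 and 2.97 in library 2 at their common region, and a stronger peak of library 2, with 3.29, lay at another start site. Outside promoters the highest lost region was the intronic one of ZNF536 printed above (chr19:30823925-30824710), with 102 and 184 tags but fold enrichments of only 2.39 and 2.17, at relative backgrounds of 22.4 and 25.1. The SULF2 region, near a gene of a heparan sulfate sulfatase, had 6.48 and 5.29 over 1.52 and 2.08. An intronic region near CD96 (chr3:111274106-111275001) had 7.88 and 5.30 over 1.42 and 1.00.

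The other lost regions lay nearest to ZNF595 (2 regions at the end of chromosome 4), TBC1D3F, TBC1D3, TPTE, TUBB8B (at the end of chromosome 18), TRPS1, MTIF3, IZUMO2, ZNF217, MYEOV, IFFO2, PPIAL4G, FER1L6, DEFB115, KRTAP5-7 and TMEM121. How uniquely reads map in the lost regions was not tested. KYSE-150, the other ESCC line of the series, had a peak at 8 of the 23 lost regions (34.8%, 18.8 to 55.1%). For shared regions this share was 4.40%. Over all 23 lost regions the fold enrichment ran from 2.38 to 7.88 in library 1 and from 2.0 to 5.53 in library 2. A raised background in at least 1 library was present at 7 of the 23 lost regions (30.4%), at 16 of the 186 gained regions (8.60%) and at 143 of the 4662 shared regions (3.07%).

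Shared promoters were found for 3780 genes (18.7%), and CDC27 was the only gene with a promoter peak in all 4 libraries. CDC27 (chr17:45195069-45266788), a subunit of the anaphase-promoting complex with pseudogene copies elsewhere, had fold enrichments of 9.62 and 8.79 in HET-1A libraries 1 and 2 and of 7.43 and 9.24 in KYSE-30 libraries 4 and 6, but these strongest peaks lay at 3 separate places along the gene. The strongest peaks of the libraries did not all overlap for 618 of the 3780 genes. In 3 libraries, ZNF286A and its readthrough gene ZNF286A-TBC1D26 had 14.3 in HET-1A library 2 and 7.86 and 16.7 in KYSE-30. CHCHD2, a mitochondrial protein gene on chromosome 7, had 8.06 in HET-1A library 2 at a background of 1.00, and 3.59 and 11.2 in KYSE-30 at 5.59 and 8.36. SENP2, a SUMO protease gene, had 8.91, 5.05 and 7.96 in these libraries, and EDEM3, of protein quality control in the endoplasmic reticulum, had 7.14, 7.24 and 11.3. ICE1, the pair DRC3 and TOM1L2, and the pair B9D1 and MAPK7 filled the remaining places, with the first of the pair B9D1 and MAPK7 belonging to the ciliary transition zone and the second encoding the kinase ERK5.

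Of the 17 regions with a peak in all 4 libraries, 6 were at promoters and 11 outside, and none of the 11 held the AP-1 core (0%). The REXO1L1 region of near-identical copies was among the 17. The highest ranked were chrY:10037671-10037997, chr20:26189859-26190354 and chr20:26188684-26189391, with protein-coding start sites 670776, 512370 and 511195 bp away. How uniquely reads map in these regions was not tested, so the 0% describes this small set only. An intronic region nearest to GALC had fold enrichments of 16.4 and 13.4 in HET-1A libraries 1 and 2, and the KYSE-30 values were 12.5 and 14.1. HET-1A library 1 ranked its shared regions high, with a median percentile of 92.0 against 39.7 at the regions found in that library alone.

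With the same number of peaks taken from each library, the balance between the lines changed. The 168 peaks of smallest p-value from each of the 4 libraries merged into 600 regions, of which 23 were gained, 0 lost and 32 shared. With 1255 peaks from each of HET-1A library 2 and both KYSE-30 libraries, 3248 regions were formed. In these, 203 were gained, 1007 were in HET-1A library 2 only and 248 were shared, where the HET-1A class needed 1 library and the gained class needed both. Their promoter shares were 78.8% (72.7 to 83.9%), 68.3% (65.4 to 71.1%) and 85.1% (80.1 to 89.0%). The most even comparison took 11671 peaks from the longest list of each line, HET-1A library 2 and KYSE-30 library 6, which gave 19216 regions. Of these, 7567 were in KYSE-30 only (39.4%), 7570 in HET-1A only (39.4%) and 4079 shared (21.2%). The promoter share was 46.7% (45.6 to 47.8%) in KYSE-30 only, 51.9% (50.8 to 53.0%) in HET-1A only and 70.6% (69.1 to 71.9%) in shared regions. The intervals of these 3 shares did not overlap, with 1 library per line behind them. Introns held 29.2% of the KYSE-30 regions and 25.2% of the HET-1A regions. Among promoters of protein-coding genes at this equal rank, 2428 were called in KYSE-30 library 6 only (12.0%), 2854 in HET-1A library 2 only (14.2%) and 3352 in both (16.6%).

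The overlap between the lines was largest among the strongest peaks. Of the KYSE-30 library 6 peaks, 19% of the weakest 10% by p-value overlapped a HET-1A library 2 peak, and 61.0% of the strongest 10% did. In the other direction, the share of HET-1A library 2 peaks with a peak in KYSE-30 library 6 went from 5.14% to 54.3%. Promoter peaks overlapped more often than distal ones at both ends, with 59.3% against 41.3% in the strongest 10% of HET-1A library 2. Of the strongest 10% of KYSE-30 library 6, 21.8% had a peak in its own replicate, library 4, whose list is shorter. Over the 4542 regions with a peak in both longest lists, Spearman's rho between the rank percentiles was 0.0893, given as a description across regions that are not independent.

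**Figure D3:**
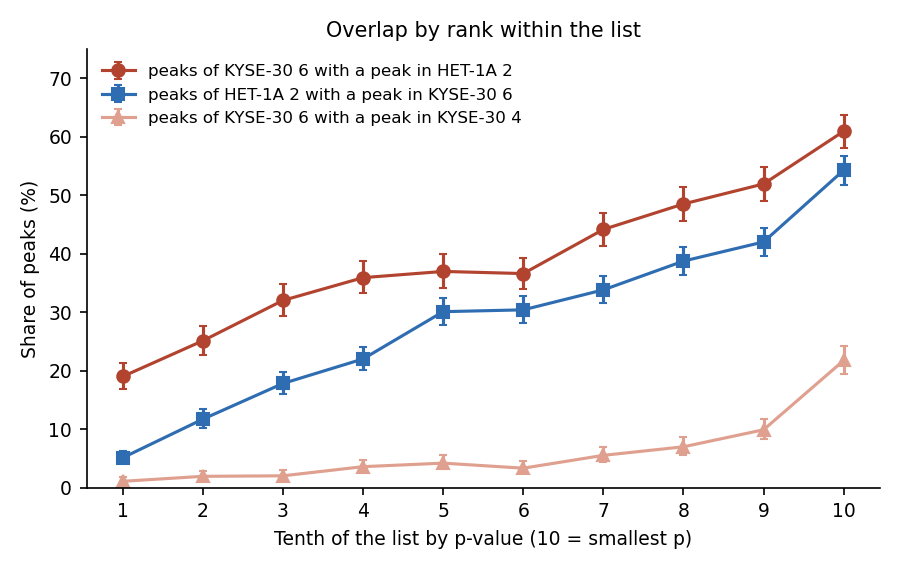
Share of peaks (%) that overlap a peak of another library, by steps of 10% of the list from the largest p-value (1) to the smallest (10), with Wilson 95% intervals. The share of KYSE-30 library 6 peaks found in HET-1A library 2 goes from 19% to 61.0%, that of HET-1A library 2 peaks in KYSE-30 library 6 from 5.14% to 54.3%, and the share found in KYSE-30 library 4 reaches 21.8%.

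In the longest lists, the promoters highest in KYSE-30 library 6 without any HET-1A peak were LANCL2, MRPS17, NIPSNAP2, SEC61G, PEG10, SGCE, EIF3E, EMC2, SLC19A2 and CCNG1. EIF3E, a translation initiation factor subunit, and EMC2, of a membrane protein complex of the endoplasmic reticulum, share a start region on chromosome 8 with a fold enrichment of 10.6 and 56 tags. Neither had a peak in library 4, and the other 8 were gained. CCNG1, a cyclin gene induced by p53, had 4.97 in library 4 and 11.4 in library 6.

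The promoters highest in HET-1A library 2 without any KYSE-30 peak had a peak in that library alone. LTO1 (chr11:69467844-69490184), which neighbours CCND1, had 125 tags and a fold enrichment of 6.41 at a relative background of 5.58. TENT4A, a poly(A) polymerase gene, had 6.98, and the pair DKKL1 and TEAD2, the latter a partner of YAP, had 6.75. FDPS, an enzyme of the mevalonate pathway, had 7.19, and CHD8, a chromatin remodeller, had 8.57. DSN1, NFATC2IP, USP14 and TMEM250 had 6.37, 7.71, 5.83 and 5.79. All but LTO1 had backgrounds under 4.

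Outside promoters, the 5 highest HET-1A regions of this kind all had raised backgrounds, from 11.4 to 20.7. They lay nearest to TSHZ3, MYL12B, MYC (2 regions) and DLGAP1, with 221 to 256 tags and fold enrichments of 3.66 to 5.66, and 4 of the 5 held the AP-1 core. Of the 97 regions nearest to TSHZ3, all 97 were called in HET-1A library 2 and none in KYSE-30. Of the 128 regions nearest to MYC, 115 were in HET-1A only, 11 shared and 2 in KYSE-30 only. The corresponding KYSE-30 regions lay nearest to EGFR (2 regions), P3H2, ETV1 and TENM2, with 54 to 181 tags and backgrounds of 2.37 to 14.1.

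Regions of a raised background lay mostly in few segments, and the largest groups were on different chromosomes in the 2 lines. Among regions with peaks in KYSE-30 only, in either library, 124 of 7530 had a raised background (1.65%), and 84 of these were on chromosome 7 between positions 52817682 and 65262731. A further 9 lay on chromosome 11 between 69914133 and 71358174, a stretch that also held raised regions of HET-1A only. Among regions with peaks in HET-1A only, 934 of 11404 did (8.19%), with 260 on chromosome 8, 223 on chromosome 11, 193 on chromosome 19 and 138 on chromosome 18. In the HET-1A windows of 1 Mb with the most such regions, the genes nearest to these regions were not always inside the window. They included TSHZ3 and ZNF536 on chromosome 19 (91 regions) and DLGAP1 and MYL12B on chromosome 18 (95). On chromosome 8 they included MYC (92), and on chromosome 11 SHANK2, CTTN and PPFIA1 (86). Both lines had raised values at CTTN and PPFIA1, whose promoters were shared. CTTN, a regulator of cortical actin, had 241 tags at a background of 14.8 in HET-1A library 2 and 41 and 57 tags at 6.41 and 7.69 in KYSE-30 libraries 4 and 6. Without every region of raised background the promoter share of gained regions was 65.3%, against 63.4% with them. The part of DNA copy number in these backgrounds was not tested.

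The AP-1 core was more frequent around the summits of distal regions of both lines than in windows 10 kb downstream. It was present in 28 of the 68 gained distal regions (41.2%, 30.3 to 53.0%) and in 761 of the 1405 shared distal regions (54.2%, 51.6 to 56.8%), against 33.7% of all 11682 distal regions and 2.87% of their windows downstream. Of the 17 lost distal regions only 1 held it (5.88%, 1.05 to 27.0%). It was in 39.1% (37.6 to 40.7%) of the distal regions of KYSE-30 library 6 alone and in 27.1% (26.0 to 28.2%) of those of HET-1A library 2 alone. In the distal regions of the shorter lists alone it was rarer, with 7.11% (4.55 to 11%) for library 4 of KYSE-30 and 5.68% (2.45 to 12.6%) for library 1 of HET-1A. Their own downstream windows held it in 3.16% and 2.27%. At the equal rank of 11671 peaks the shares moved closer, to 39.3% (37.8 to 40.8%) in KYSE-30 only and 36.0% (34.5 to 37.6%) in HET-1A only, with 56.3% (53.5 to 59.1%) in shared regions. With 1255 peaks in each of 3 libraries they were 62.8% (47.9 to 75.6%), 50.8% (45.3 to 56.2%) and 40.5% (26.3 to 56.5%), with overlapping intervals, and HET-1A library 1 was left out there. At promoters the core was rarer, with 9.32% (5.29 to 15.9%) of gained and 10.9% (9.88 to 12.0%) of shared regions.

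**Figure D4:**
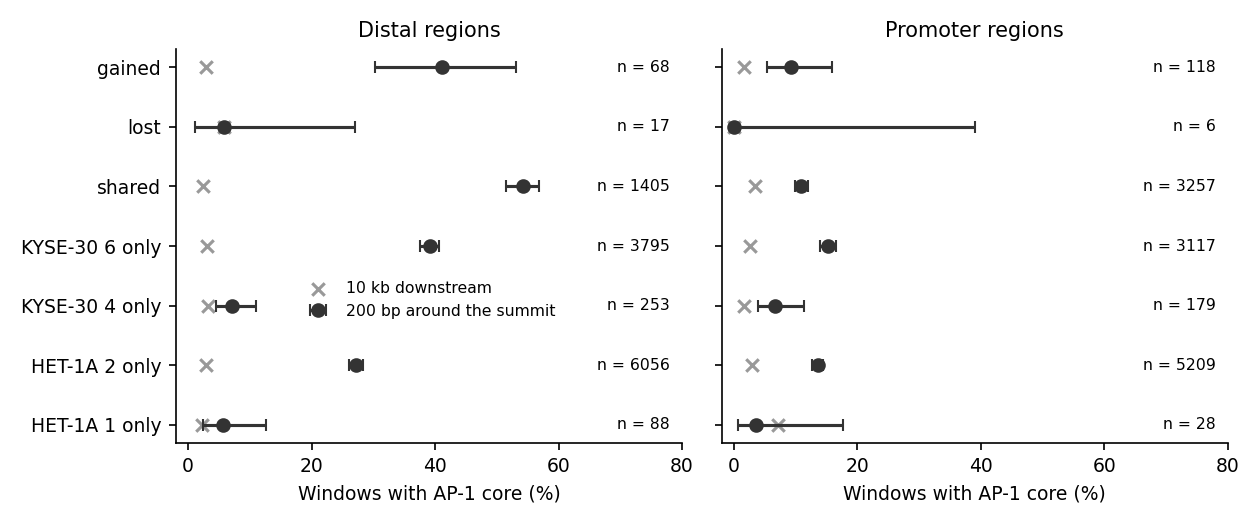
Share of windows (%) with the AP-1 core in 200 bp around the summit (points with Wilson 95% intervals) and 10 kb downstream (crosses), for distal regions on the left and promoter regions on the right, with n regions at the right edge. Shared distal regions reach 54.2%, gained 41.2% and KYSE-30 library 6 alone 39.1%, and the downstream windows reach at most 7.14%.

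Other motifs were searched in the same windows on both strands, and those named here were chosen after their values were seen. GGAATG, bound by TEAD factors, was in 22.9% (21.6 to 24.2%) of the distal regions in KYSE-30 only, 15.9% (14.8 to 17.1%) in HET-1A only and 19.8% (17.7 to 22.2%) of shared regions at the equal rank of 11671 peaks. It was in 18.2% of all distal regions and 10.7% of the downstream windows. TGTGGTT, bound by RUNX factors, was in 7.34% (6.57 to 8.18%), 4.72% (4.08 to 5.46%) and 6.16% (4.94 to 7.67%), against 5.50% of all distal regions. The CTCF pattern, which reads CCA, 2 free bases, AG, 2 free bases and GGC, was in 3.30% (2.79 to 3.89%), 6.32% (5.57 to 7.15%) and 2.25% (1.55 to 3.25%), against 3.86% of all distal regions. AGATAA, bound by GATA factors, was in 11.5% (10.6 to 12.5%), 7.25% (6.45 to 8.14%) and 8.16% (6.74 to 9.84%), below its 12.9% in the windows downstream of all distal regions. The intervals of KYSE-30 only and HET-1A only did not overlap for these 4 motifs, with 1 library per line behind them. For the last of the 4, the windows 10 kb downstream differed between the lines in the same direction. Its downstream share was 15.2% (14.0 to 16.3%) for distal regions of KYSE-30 library 6 alone. For those of HET-1A library 2 alone it was 11.6% (10.8 to 12.5%). Its difference between the lines was thus also present away from the summits. The downstream intervals of the others among the 4 overlapped. The median GC content was 46.5% in the distal regions of KYSE-30 library 6 alone and 49.5% in those of HET-1A library 2 alone, and its part in these differences was not tested. At promoters, GGGCGG, bound by SP and KLF factors, was in 44.9% (36.2 to 53.9%) of gained and 57.2% (55.5 to 58.9%) of shared regions, against 44.6% of all promoter regions. CCAATCA, bound by NFY, was in 11% (6.55 to 17.9%) and 14.1% (13 to 15.4%), and CCGGAAG, bound by ETS factors, in 10.2% (5.91 to 16.9%) and 15.5% (14.3 to 16.8%). A match is a run of letters and not a bound site.

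Promoter peaks were then counted over lists of genes of known roles. Peaks were present at 0.0942% of all protein-coding promoters in HET-1A library 1, 35.4% in library 2, 3.87% in KYSE-30 library 4 and 28.7% in library 6. When either library was enough, 10.7% of the promoters had a peak in KYSE-30 only and 16.7% in HET-1A only. Members of a list share libraries and are not replicates, so their counts are read against these shares and no list was tested. None of the lists gained or lost more than 2 promoters when both libraries were required. ITGAV, the alpha V integrin subunit, was gained with 3.94 and 4.92 in libraries 4 and 6, and LAMC1, the gamma 1 chain of laminin, with 3.68 and 4.01. GAPDH of glycolysis was counted as gained with 3.53 and 3.82, with strongest peaks that did not overlap, SEC61G and LANCL2 were named above, and no list member was lost.

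The genes of AP-1 factors had no peak in KYSE-30 only. Of 14 such genes, 7 had a promoter peak in HET-1A only, all in library 2, 3 were shared and 4 had none. FOSB had a fold enrichment of 4.77 in HET-1A library 2, JUND 5.19, FOSL1 4.17, FOS 3.60 and JUNB 3.37, and MAFF and MAFK had 4.41 and 3.14. These peaks do not measure expression. In the paper's PCR array, RNA of FOSL1, MAFK and BATF was higher in KYSE-30 than in HET-1A, and BATF had no promoter peak here. The shared promoters were those of JUN, with 5.43 in HET-1A library 2 and 8.70 in KYSE-30 library 6, FOSL2, with 3.66 and 7.26, and ATF3. ATF3 had 4.29 in HET-1A library 2 and 4.11 and 6.63 in KYSE-30 libraries 4 and 6. At the equal rank of 11671 peaks the counts of 0, 7 and 3 were the same.

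Of 12 ligands and receptors of the ERBB family, 4 had a peak in KYSE-30 only, 2 in HET-1A only, 2 were shared and 4 had none. Over all protein-coding promoters, 10.7% had a peak in KYSE-30 only and 16.7% in HET-1A only. EGF, EREG, BTC and EPGN, ligands of EGFR, were called in KYSE-30 library 6 alone, with 7.25, 4.57, 3.67 and 3.76. The peaks of BTC and EPGN stood at rank percentiles of only 2.63 and 5.27, and EREG stood at 43.9 and EGF at 74.5. HBEGF, another ligand, had 4.27 in HET-1A library 2 only, and ERBB2, a partner receptor of EGFR, had 3.31 there. At the equal rank HBEGF alone remained in HET-1A only, and the same 4 ligands were in KYSE-30 only. TGFA was shared, with strongest peaks that did not overlap, with 4.61 in HET-1A library 2 and 4.52 in KYSE-30 library 6. Among 12 feedback genes of MAPK signalling, DUSP5 and SPRY2 were in KYSE-30 only, LRIG1 in HET-1A only, and DUSP6, DUSP10, SPRY4 and SPRED2 were shared.

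Genes of epithelial identity were found on both sides. Of 17 keratin genes, 5 had a peak in HET-1A only, namely KRT6A, KRT7, KRT15, KRT17 and KRT18, 1 was shared, KRT8, and 11 had none. At the equal rank 3 were in HET-1A only, KRT7, KRT15 and KRT18. KRT8 and KRT18 are neighbours, and the same HET-1A peak, with a fold enrichment of 5.33, counted for both, while the KYSE-30 peak of KRT8 lay at another start site. Several keratin genes are close copies of each other, KRT6A among them, so its value of 3.53 is uncertain. Among 16 squamous lineage factors, TFAP2A and GRHL2 were in KYSE-30 only, with 5.21 and 5.67, and KLF4, TFAP2C and GRHL3 in HET-1A only, with 3.36, 3.21 and 4.72. The shared promoters, 4 in number, included KLF5, GRHL1 and ELF3, and 7 of the 16 had no peak. Of 19 genes of junctions and desmosomes, CTNNA1, PKP2 and CLDN1 were in KYSE-30 only, DSP, PKP3 and OCLN in HET-1A only, and 5 were shared. At the equal rank, 4 squamous lineage factors were in KYSE-30 only and 2 in HET-1A only, and GRHL1 was among those that no longer counted as shared. Among the junction genes, OCLN was then no longer in HET-1A only, and CLDN4, shared before, was in KYSE-30 only.

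Of 16 integrin and laminin genes, ITGA2, ITGAV, ITGB8 and LAMC1 had peaks in KYSE-30 only and ITGA3, ITGA5 and ITGA6 in HET-1A only, of which ITGA3 alone remained at the equal rank. Shared promoters numbered 5, among them LAMA3 and LAMA5, which encode laminin chains of the epithelial basement membrane, and ITGB5. Among 16 matrix protease genes, MMP1, MMP2, MMP10 and MMP14 were in HET-1A only, PLAT in KYSE-30 only, and PLAU and PLAUR, the urokinase and its receptor, were shared. VIM, the intermediate filament of mesenchyme, was in KYSE-30 only with 5.37, and FN1 and THY1 were in HET-1A only with 4.78 and 3.1, among 18 mesenchymal genes of which 13 had no peak. At the equal rank MMP14 and THY1 no longer counted as HET-1A only. Of the genes shared before, PLAU was then in KYSE-30 only and SNAI2 in HET-1A only.

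In the YAP and TEAD pathway, 7 of 15 genes were in HET-1A only, namely YAP1 (5.20), TEAD1 (4.60), TEAD2 (6.75), ANKRD1 (4.60), AMOTL2 (3.58), LATS2 (5.75) and AXL (4.90). TEAD4 and CCN2, a target gene of YAP, were in KYSE-30 only, with 3.75 and 6.76, and these counts of 7 and 2 were the same at the equal rank. Of 18 chromatin regulators, 7 were in HET-1A only (KMT2A, KDM6A, ARID1A, SMARCA4, SMARCB1, DNMT1 and HDAC1) and 2 in KYSE-30 only, KMT2C among them. At the equal rank 5 were in HET-1A only, without KDM6A and DNMT1. Of 15 genes of NRF2 and its targets, NFE2L2, which encodes NRF2, and SLC7A11, the cystine transporter, had peaks in KYSE-30 only, with 5.00 and 8.72. The list had 0 in HET-1A only, and 5 were shared, among them NQO1, GCLC and TXNRD1. Among 19 cell cycle genes, CCNE2 and CCNA2 were in KYSE-30 only and CCND1, CCND3, CDKN1A, RB1 and E2F1 in HET-1A only, with 7 shared. The CCND1 peak had 99 tags and a fold enrichment of 3.34 over a relative background of 8.66.

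The remaining lists had members in each class. MHC class I presentation had B2M, HLA-F and PSMB8 in KYSE-30 only, with B2M at 8.27, and 4 genes in HET-1A only, TAPBP among them, where HLA genes are close copies and uncertain. The interferon response had MX1 and IFIT3 against IRF9 and ISG15. Wnt and Notch signalling had HEY1, TCF7L2 and LEF1 against NOTCH1, NOTCH3, WNT7B and FZD7, and TGF-beta signalling had TGFB2 and TGFBR2 against TGFBR1, SMAD3 and SKIL. TGFBR2, a receptor of this pathway, had the high value of 10.2 in KYSE-30 library 6. Of 14 collagen genes, COL3A1 was in KYSE-30 only and COL6A1 and COL7A1 in HET-1A only. Of 28 HOX genes, 21 had no peak. At the equal rank TAPBP, NOTCH3, FZD7, SKIL and COL6A1 no longer counted as HET-1A only. Even genes that all cells use were split between the lines, with 4 of 24 cytosolic ribosomal protein genes in KYSE-30 only and 7 in HET-1A only, and with ACTB, GAPDH, PGK1 and YWHAZ in KYSE-30 only and PPIA, TFRC and GUSB in HET-1A only among 12 housekeeping genes. Of the housekeeping genes, 2 had no peak in any library.

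**Figure D5:**
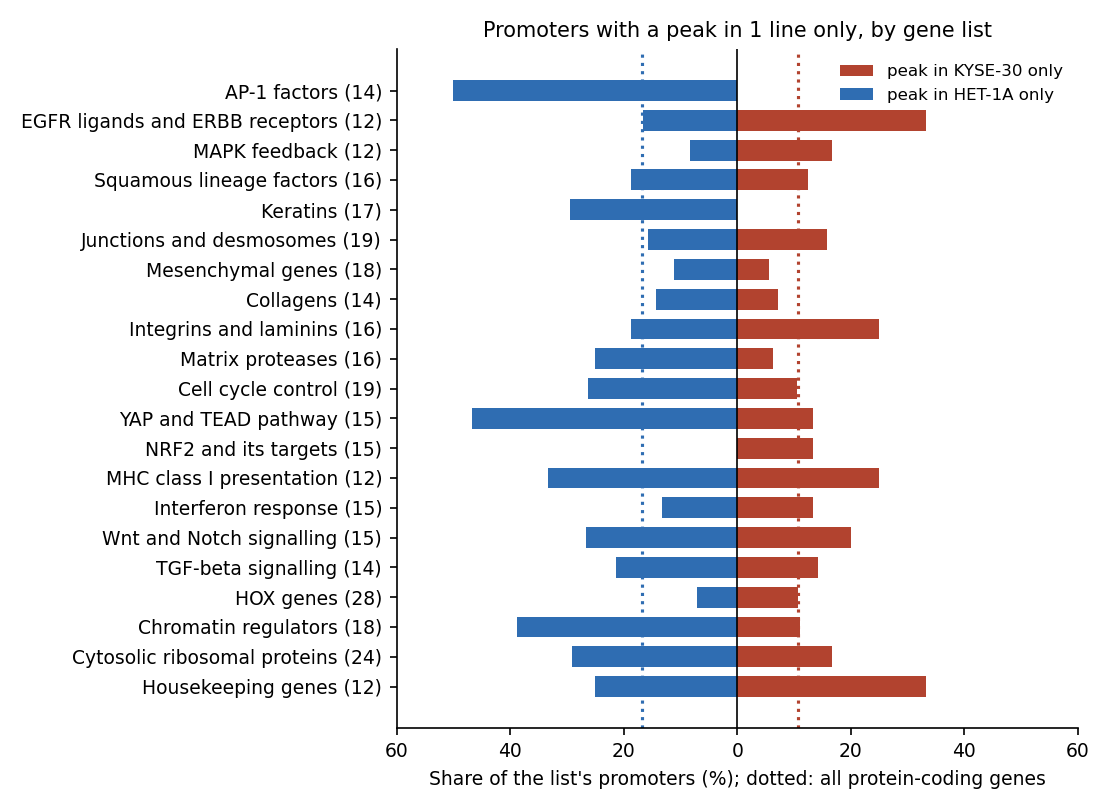
Share of each list's promoters (%) with a peak in KYSE-30 only (red, to the right) or in HET-1A only (blue, to the left), a peak in either library being enough, with the number of genes in parentheses; dotted lines mark the shares over all protein-coding genes, 10.7% and 16.7%. AP-1 factors have 7 of 14 genes in HET-1A only and 0 in KYSE-30 only, and the housekeeping and ribosomal genes are split as well.

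Markers of cell types were checked against the labels. Of 12 markers of stratified squamous epithelium, 9 had no promoter peak in any library, among them KRT5, KRT14 and TP63, and 0 were shared. The IVL peak came from KYSE-30 library 6 alone, and KRT6A and S100A2 in HET-1A library 2 only. Of 5 markers of simple epithelium, KRT8 and EPCAM were shared and KRT18 was in HET-1A only. The 6 immune, 3 endothelial and 3 hepatocyte markers had no peak in any library. Of 10 mesenchymal markers, VIM and COL3A1 were in KYSE-30 only and FN1 in HET-1A only, and of 4 neural markers MBP was shared, at separate start sites, and RBFOX3 was called in KYSE-30 library 4 alone.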

How the data were processed

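The deposited narrowPeak lists of the 4 libraries were used. Per the paper's methods and the submitters' processing notes, the authors marked duplicates (Picard 2.2.1), mapped reads to hg19 (Bowtie2 2.3.3.1), removed blacklisted regions, applied the Tn5 shift, restricted the data to fragments shorter than 100 bp, and ran MACS2 2.1.0.20160309 at q 0.05 with reads extended to 200 bp. The deposited values are a score, a fold enrichment (a ratio), and −log10 values of p-value and q-value. Summit tags and local background were recovered from the fold enrichment and the −log10 p-value for 100% of peaks, within 0.001. The smallest local background of a library was taken as its genome background.

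Regions were merged at 1 bp overlap. Promoters and genes came from GENCODE 44 lifted to GRCh37, and motifs were searched in 200 bp around the summit and 10 kb downstream. Of 399 list entries, 398 matched a gene. Genes and regions were named by mean rank percentile (10 highest promoters and distal regions of a class, 5 for the longest lists) besides list members; others are marked. The comparison and the lists were chosen with earlier results of these data known. Class calls were checked on simulated data. Python 3.11.15, pandas 2.3.3, scipy 1.17.1 and pysam 0.24.0 were used. Alternatives changed the number of peaks, overlap, promoter width, q-value and libraries. Some named genes and regions are not reported here.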

Additional observations from a re-analysis of the deposited data

How the results depend on the processing

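No paired analysis was possible because the libraries of the lines share no replicate number and no test was run. Of 136 alternative values, 75 stayed within 1.5 times the reported count or within the interval of the reported share, and 61 moved. With 168 peaks per library there were 23 gained, 0 lost and 32 shared regions, with 14, 0 and 11 genes, a shared promoter share of 50% and an AP-1 share of 18.8% in shared distal regions. With 1255 peaks in 3 libraries there were 1007 lost and 248 shared regions, 197, 772 and 255 genes, promoter shares of 78.8% in gained and 85.1% in shared regions, and AP-1 shares of 62.8% and 40.5%. With 11671 peaks there were 7567 gained and 7570 lost regions, 2428 and 2854 genes, and a gained promoter share of 46.7%. A peak in either library gave 7530 gained and 11404 lost regions, 2151 and 3359 genes, and a gained promoter share of 45.3%. Overlap of 50% left 7 lost regions and a shared promoter share of 68.5%. A peak in every library left 17 shared regions and 1 gene, with a promoter share of 35.3% and an AP-1 share of 0%. Start sites of protein-coding genes alone gave promoter shares of 46.8% in gained and 61.6% in shared regions. Promoters of 1 kb gave 64.1% in shared regions and 2 lost genes, assignment to the nearest start site gave 36 lost genes, and motif search in the whole region gave 62.7% of shared distal regions.

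Leaving out each library in turn gave 187 to 7104 gained, 24 to 11288 lost and 26 to 4657 shared regions, and 114 to 2094 gained, 5 to 3352 lost and 7 to 3778 shared genes. The promoter share ran from 45.6 to 77.0% in gained and from 42.3 to 79.0% in shared regions, and the AP-1 share from 13 to 48.7% in gained and from 0 to 54.7% in shared distal regions. Gained regions numbered 677 without HET-1A library 2, 7104 without KYSE-30 library 4 and 630 without KYSE-30 library 6, lost regions 11288 without HET-1A library 1 and 142 without HET-1A library 2, and shared regions 26 without HET-1A library 2 and 620 without KYSE-30 library 6. Fewer libraries in a line make its class easier to enter. The limits of q 0.01 and 0.001 and leaving out regions of raised background moved none of these results. The lists hold no reads outside peaks, so the absence of a peak is not a measure of closed chromatin.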
